A study of Marmota monax with 203 samples.

Results

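Neutrophils are short-lived granulocytes that arrive in the liver with the blood. This report describes 8 genes by which they are commonly recognised in tissue RNA, followed through wIFN-α treatment of chronic woodchuck hepatitis virus (WHV) infection. The genes were taken by symbol from the per-run expression files and are *S100A8*, *S100A9*, *CSF3R*, *CXCR2*, *FPR1*, *MMP9*, *LCN2* and *MPO*. They make up 8 of the 17587 woodchuck genes that occur in the files. The files pair each symbol with counts of the authors' transcriptome assembly and give no coordinates, so no position or sequence is stated here.

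The animals were captive-born woodchucks (*Marmota monax*), a natural rodent host of WHV, that had been infected as neonates and were chronic carriers in both arms. Recombinant woodchuck interferon-alpha (wIFN-α) or vehicle (placebo) was given subcutaneously 3 times a week, at 20 µg per animal from week 0 and at 100 µg from week 7 to week 15. Liver biopsies were taken at week -3 before treatment, at weeks 0, 3, 7, 11 and 15 at 6 h after a dose, and at weeks 19 and 23 in follow-up without drug. The sample labels count the first treatment week as 1 where the study counts it as 0, and the study's weeks are used here. At weeks -3, 0, 3, 7, 11, 15, 19 and 23 the placebo arm had 12, 12, 12, 12, 10, 9, 5 and 9 animals, and the wIFN-α arm 11, 11, 9, 9, 8, 8, 6 and 6. Each arm held males and females, and the same animals were biopsied at successive weeks. wIFN-α animal M1004, which the study took as likely to be clearing WHV at its start, was kept out of the comparisons.

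Poly(A) RNA of each biopsy was sequenced, and the 149 biopsies compared held 12072840 to 84805845 reads on genes. Levels are given in CPM, a gene's reads scaled to a common library size, after TMM normalization, which rescales each library so that most genes match between libraries. Differences are log2 values of wIFN-α minus placebo from edgeR's quasi-likelihood test. Calls required a fold change above 1.5 together with an adjusted p (Benjamini-Hochberg, over all genes tested in that week) under 0.05, and for time courses and differences between effects the adjusted p alone. Liver identity was checked with 12 hepatocyte genes, which summed to a median of 80074 CPM or more in each group. Biopsies F1016 (placebo) and F1018 (wIFN-α) at week -3 held 15.6% and 15.8% of their reads on 20 skeletal muscle genes, and the lowest hepatocyte sums of their groups were 5901 and 2893 CPM. In all, 22 biopsies were over 1% muscle reads, among them 6 of 12 placebo and 2 of 9 wIFN-α biopsies at week 3.

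As background, neutrophils are released from bone marrow under granulocyte colony-stimulating factor, follow chemokines and bacterial peptides into tissue, and carry preformed granules. Granule proteins such as myeloperoxidase are made mainly by precursors in the marrow, while calprotectin is abundant in the cytoplasm of the mature cell. Interferons are known to act on the release, survival and migration of these cells. No gene in the set belongs to neutrophils alone: monocytes express *S100A8*, *S100A9*, *FPR1* and *CSF3R*, macrophages make *MMP9*, and hepatocytes and epithelia make *LCN2*. In bulk liver RNA, fewer cells and less RNA per cell cannot be told apart.

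All 8 genes were of low abundance in placebo liver, and the order of their levels can be compared per kilobase of transcript. Over the 81 placebo biopsies the median was 7.60 CPM per kb for *S100A9*, 5.85 for *LCN2*, 2.91 for *S100A8* and 2.81 for *FPR1*. Lower medians were found for *MMP9* (1.47 CPM per kb), *MPO* (0.723), *CSF3R* (0.491) and *CXCR2* (0.275). Neighbours in this order had overlapping interquartile ranges, except *FPR1* (2.25 to 3.32) and *MMP9* (0.978 to 2.24). The genes differed in how far they varied between placebo biopsies. The highest value was 4.55 times the lowest for *FPR1* and 10.4 times for *CXCR2*. It was 127 times the lowest for *S100A8* and 228 times for *MPO*. The transcript lengths behind these values were 577 bases for *S100A9* to 4777 bases for *CSF3R*, as implied by the ratio of the deposited counts to the deposited RPKM. All members passed the filter on low counts in every comparison, and *MPO* had no read in 1 biopsy.

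**Figure D1:**
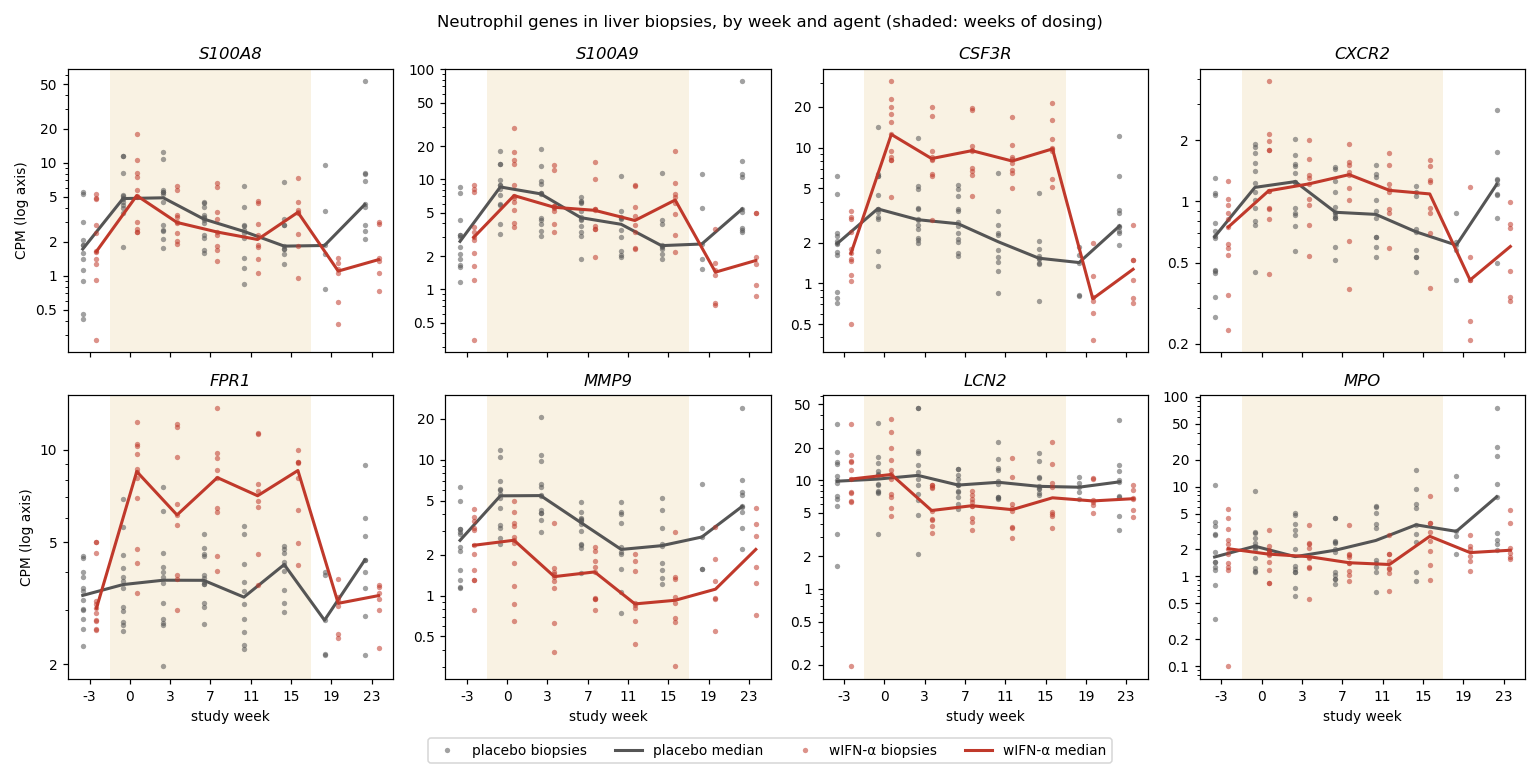
CPM of each gene (y axis, log scale) at each study week (x axis, weeks not to scale). Each point is 1 animal's biopsy, lines join the group medians, and the shaded weeks are those of dosing. *CSF3R* and *FPR1* of wIFN-α animals lay above placebo from week 0 to week 15, *MMP9* lay below, and the highest placebo values at week 23 belong to F1015 for each gene. The 1 *MPO* value of 0 is drawn at 0.1.

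The effect of wIFN-α on the 8 genes was not uniform. During treatment, 2 receptors rose, 1 protease fell, and the calprotectin genes were not called. At week 0, 3 of 8 members were called, 2 higher (*CSF3R* and *FPR1*) and 1 lower (*MMP9*), where 18.5% of the 14700 genes tested were called (10.3% higher and 8.15% lower). At week 3, 4 of 8 were called (background 10.8%, of which 7.24% higher and 3.54% lower), and at week 7 again 4 of 8 (background 21.6%, 11.4% higher and 10.1% lower), with *LCN2* added to the lower side in both weeks. At week 11 (background 20.5%, 12.6% higher and 7.98% lower) and week 15 (background 22.3%, 13.4% higher and 8.83% lower) the calls were again *CSF3R* and *FPR1* higher and *MMP9* lower. The median difference of the 8 genes stayed between -0.27 and 0.46 in these 5 weeks, with a median over all genes between -0.04 and -0.01.

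Before treatment the arms did not separate. At week -3 edgeR called 0 members and 0 of 14963 genes (background 0%), with 0 members and 130 genes at an unadjusted p under 0.05, and DESeq2 and limma-voom called 0 members. The 8 differences lay between -0.22 and 0.23.

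**Figure D2:**
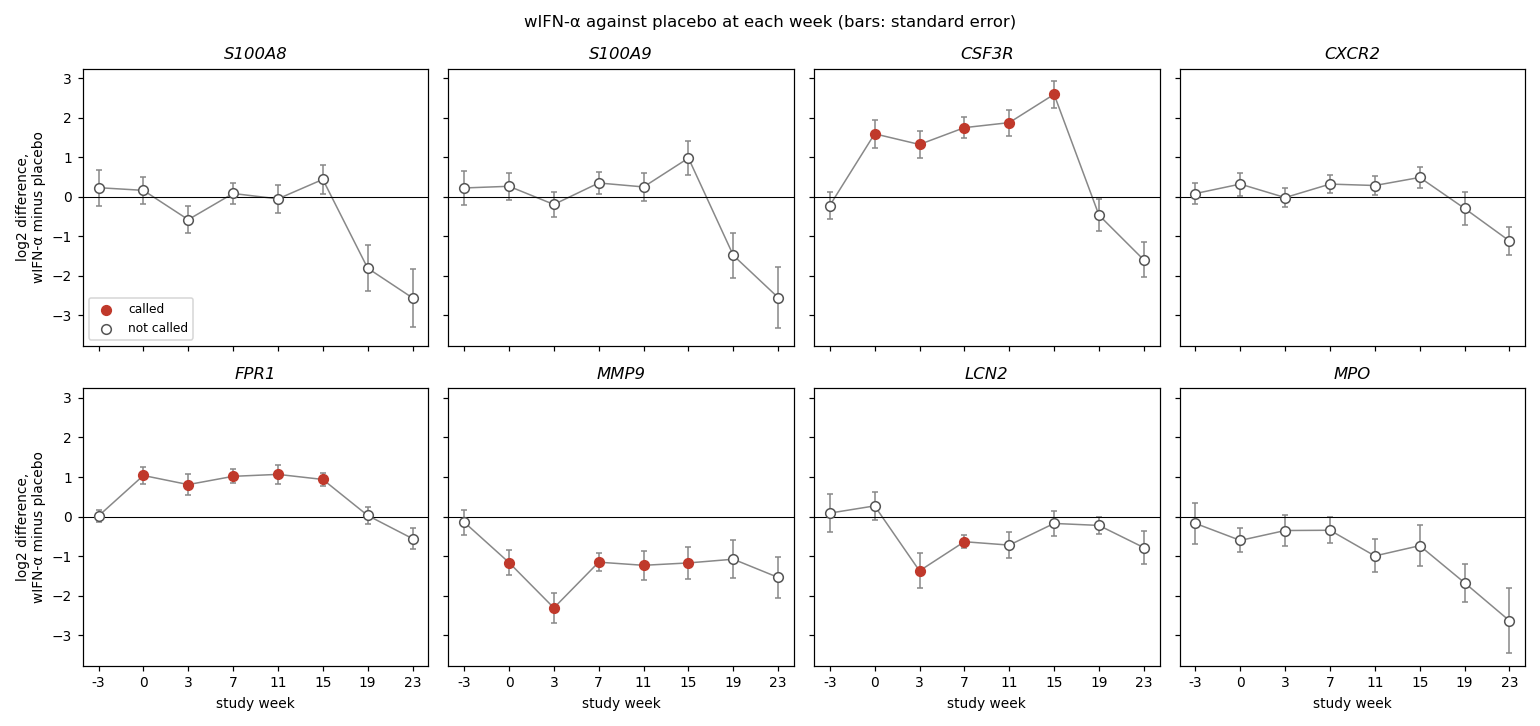
Log2 difference between wIFN-α and placebo (y axis) at each study week (x axis) with its standard error (bars) from edgeR, filled where called. *CSF3R* ran from 1.32 to 2.59 in the 5 treatment weeks, and every gene was below 0 at week 23, where none was called.

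*S100A8* and *S100A9* encode the subunits of calprotectin, a calcium- and zinc-binding alarmin. *S100A8* at week 15 ran from 1.27 through a median of 1.83 to 6.75 CPM in placebo and from 0.95 through 3.65 to 7.38 in wIFN-α animals. The groups overlapped, with 7 of 8 wIFN-α animals above the placebo median. The difference of 0.44 ± 0.37 (SE) was not called (adjusted p = 0.367), nor were the 4 earlier treatment weeks (-0.58 to 0.16).

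*S100A9* came closer to the threshold at the end of treatment. At week 15 the placebo animals had 1.90, 2.50 and 11.5 CPM as lowest, median and highest value, and the wIFN-α animals 2.19, 6.50 and 18.2. Of the 8 wIFN-α animals 7 were above the placebo median. Only 2 of 9 placebo animals were below every wIFN-α animal, so the overlap was not confined to placebo animal F1015, which had the highest placebo value. The difference of 0.98 ± 0.42 was not called (adjusted p = 0.0704). The call depended on the samples and the tool. Without F1015, whose 11.5 CPM compares with 4.28 in the next placebo animal, the difference was 1.41 and was called (adjusted p = 0.0039). It was also called without wIFN-α animal F1018 (1.12, adjusted p = 0.0365) and by DESeq2 (0.96, adjusted p = 0.0424).

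*CSF3R*, the receptor through which granulocyte colony-stimulating factor drives neutrophil production and release, showed the largest difference among the members in each treatment week except week 3. At week 0 it ran from 1.35 through 3.54 to 14.2 CPM in placebo and from 4.29 through 12.5 to 30.7 in wIFN-α animals. All 11 wIFN-α animals were above the placebo median and 5 of them above every placebo animal. The difference was 1.59 ± 0.35 (adjusted p = 0.000918). At week 3 it was 1.32 ± 0.33 (adjusted p = 0.00673), with 8 of 9 wIFN-α animals above the placebo median.

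At the high dose the separation of *CSF3R* was nearly complete. At week 7 the placebo animals had 1.58, 2.75 and 5.28 CPM as lowest, median and highest value, and the wIFN-α animals 4.42, 9.49 and 19.6. Here 8 of 9 wIFN-α animals exceeded every placebo animal, and the difference was 1.75 ± 0.27 (adjusted p = 1.44e-05). At week 11 it was 1.87 ± 0.33 (adjusted p = 0.000187). At week 15 placebo ran from 0.74 through 1.53 to 4.65 CPM and wIFN-α from 5.15 through 9.78 to 21.2. The groups no longer overlapped, as was so, in the same direction, for 8.52% of 13784 genes whose mean reached 1 CPM in that week. The difference was 2.59 ± 0.33, or 6.01-fold (adjusted p = 6.7e-06).

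The placebo level of *CSF3R* moved as well, from a median of 3.54 CPM at week 0 to 1.53 at week 15, so that the difference between arms grew while the wIFN-α median went from 12.5 to 9.78. The effect at weeks 7, 11 and 15 minus the effect at weeks 0 and 3 was 0.60 ± 0.31 for *CSF3R* (adjusted p = 0.275). With the animal as a replicate block it was 0.66 and was called (adjusted p = 0.0229). edgeR called 0 of 8 members in this comparison without the block, 0 of them had an unadjusted p under 0.05, and limma-voom called 0 with 1 at an unadjusted p under 0.05 (background 5.5%). The contrast was thus called for *CSF3R* only in the paired fit, and the SEs of the other members were 0.19 to 0.43. The higher dose always came later, so dose and time on treatment cannot be told apart.

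*FPR1*, the receptor for bacterial N-formyl peptides, rose by a similar amount in each treatment week. At week 0 it ran from 2.57 through 3.63 to 6.91 CPM in placebo and from 3.41 through 8.50 to 12.3 in wIFN-α animals. At week 15 the values were 2.96, 4.22 and 4.87 CPM in placebo and 4.21, 8.57 and 9.98 in wIFN-α animals. In both weeks the groups overlapped by few animals, 8 of 11 and 7 of 8 wIFN-α animals being above every placebo animal. The differences were 1.04 ± 0.21 at week 0 (adjusted p = 0.000385), 1.02 ± 0.18 at week 7 (adjusted p = 6.59e-05) and 0.94 ± 0.17 at week 15 (adjusted p = 0.000319). At week 3 the difference of 0.81 ± 0.26 (adjusted p = 0.0313) was no longer called when M1003, F1020 or F1022 was left out (adjusted p 0.0661, 0.0773 and 0.0795).

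*CXCR2*, the receptor for the ELR-bearing CXC chemokines that draw neutrophils into tissue, was the least abundant member. At week 15 it ran from 0.45 through 0.71 to 1.19 CPM in placebo and from 0.38 through 1.09 to 1.59 in wIFN-α animals. The ranges overlapped widely. The difference was 0.49 ± 0.27 (adjusted p = 0.164), and no week was called (-0.02 to 0.49 in the treatment weeks).

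*MMP9*, the gelatinase of neutrophil tertiary granules, went the other way. At week 3 the placebo animals had 2.96, 5.44 and 20.8 CPM as lowest, median and highest value, and the wIFN-α animals 0.38, 1.38 and 3.43. Only 1 of 9 wIFN-α animals reached the placebo range. The difference was -2.31 ± 0.38, or 4.94-fold lower (adjusted p = 0.000147). It was also the member that stayed called at week 3 without the biopsies over 1% muscle reads, when the calls of *CSF3R* (1.42, adjusted p = 0.0831), *FPR1* (0.96, adjusted p = 0.107) and *LCN2* (-1.48, adjusted p = 0.0701) were lost at 6 placebo and 7 wIFN-α biopsies.

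In the other treatment weeks *MMP9* was lower by less. The differences were -1.16 ± 0.32 at week 0 (adjusted p = 0.00686), -1.15 ± 0.22 at week 7, -1.23 ± 0.37 at week 11 and -1.17 ± 0.40 at week 15 (adjusted p = 0.0246). At week 15 placebo ran from 1.21 through 2.33 to 5.24 CPM and wIFN-α from 0.30 through 0.92 to 2.96. Of the 8 wIFN-α animals 7 were below the placebo median. All 8 wIFN-α animals with biopsies at weeks -3 and 15 had less *MMP9* at week 15 than before treatment.

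*LCN2* encodes lipocalin-2, a siderophore-binding protein of specific granules that hepatocytes also secrete in the acute phase. At week 7 it ran from 5.48 through 9.04 to 12.7 CPM in placebo and from 3.49 through 5.83 to 8.05 in wIFN-α animals. All 9 wIFN-α animals were below the placebo median, and 7 of 12 placebo animals were above every wIFN-α animal. The difference was -0.63 ± 0.17 (adjusted p = 0.0032). At week 3 it was -1.37 ± 0.44 (adjusted p = 0.0332), and the call at week 3 was lost without M1002, M1003, M1007, M1012 or F1022 (adjusted p 0.055 to 0.0637). The week 7 call was lost without M1003 (-0.58) or M1007 (-0.57), when the fold change fell under 1.5. limma-voom called *LCN2* in neither week (-0.94, adjusted p = 0.196 at week 3, and -0.56 at week 7, under a fold change of 1.5), and a fit of all weeks did not call it at week 7 (adjusted p = 0.193). At week 11 the difference of -0.72 ± 0.33 was not called (adjusted p = 0.0923) but was without F1013 (-1.03, adjusted p = 0.0119) and by limma-voom (-0.82, adjusted p = 0.0422). At week 15 the difference was -0.17 ± 0.32 (adjusted p = 0.702).

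*MPO*, the peroxidase of azurophil granules, had negative differences in all 5 treatment weeks (-0.99 to -0.34), and none was called. At week 11 placebo ran from 0.67 through 2.51 to 6.05 CPM and wIFN-α from 0.68 through 1.36 to 2.91. The wIFN-α values lay within the placebo range. The difference was -0.99 ± 0.42 (adjusted p = 0.0691), and it was called by DESeq2 (adjusted p = 0.0367), with M1004 included (adjusted p = 0.0432) and without F1020 (adjusted p = 0.0358).

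The labels give 7 lane numbers, each with biopsies of both arms. Barcodes recur within a lane number, so a number covers more than 1 flow cell, and flow cells cannot be told apart here. Within lane numbers, after subtraction of each week's placebo mean, *CSF3R* was higher in wIFN-α biopsies of weeks 0 to 15 in 7 of 7 (1.32 to 2.74). *FPR1* was higher in 7 of 7 (0.31 to 1.44), and *MMP9* was lower in 7 of 7 (-1.87 to -0.89).

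In follow-up the higher *CSF3R* and *FPR1* of wIFN-α animals were no longer seen. At week 19 the 5 placebo animals had 0.768, 1.56, 1.86, 3.73 and 9.63 CPM of *S100A8*, and the 6 wIFN-α animals ran from 0.373 through a median of 1.10 to 1.44. All 6 wIFN-α animals were below the placebo median. The difference was -1.80 ± 0.58 (adjusted p = 0.313). *MPO* had 1.77, 2.84, 3.18, 9.36 and 13.1 CPM in placebo and ran from 1.14 through 1.84 to 2.90 in wIFN-α animals, a difference of -1.67 ± 0.48 (adjusted p = 0.297). *CSF3R*, 6.01-fold higher 4 weeks before, had 0.806, 0.823, 1.42, 1.61 and 1.84 CPM in placebo and 0.39 through 0.77 to 1.97 in wIFN-α animals. Here the groups overlapped, with a difference of -0.46 ± 0.40 (adjusted p = 0.636).

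At week 23 all 8 differences were below 0. *S100A8* ran from 2.14 through 4.29 to 52.7 CPM in 9 placebo animals and from 0.73 through 1.39 to 3.00 in 6 wIFN-α animals. *S100A9* ran from 3.36 through 5.38 to 77.7 CPM in placebo and from 0.87 through 1.83 to 5.005 in wIFN-α animals. For each, 4 of 6 wIFN-α animals were below every placebo animal. The differences were -2.56 ± 0.73 and -2.55 ± 0.78 (adjusted p = 0.256 for each). *MPO* differed by -2.63 ± 0.82, *CSF3R* by -1.60 ± 0.44 and *MMP9* by -1.54 ± 0.52. *CXCR2* differed by -1.12 ± 0.36, *LCN2* by -0.78 ± 0.41 and *FPR1* by -0.56 ± 0.26.

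None of these passed the threshold over all genes. At week 19 edgeR called 0 members and 0 of 14715 genes (background 0%), with 4 members and 1859 genes at an unadjusted p under 0.05. At week 23 it called 0 members and 0 of 14956 genes (background 0%), with 7 members and 2416 genes at an unadjusted p under 0.05. DESeq2 called 1 member in each of the 2 weeks, *MPO* at week 19 (adjusted p = 0.0453) and *CSF3R* at week 23 (adjusted p = 0.049), and limma-voom 0. A fit of all weeks, which pools the spread over 149 biopsies, called 6 members at week 23: *S100A8* (adjusted p = 0.00338), *S100A9* (0.00371), *MPO* (0.00656), *CSF3R* (0.0249), *MMP9* (0.0318) and *CXCR2* (0.0441).

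Much of the size at week 23 came from 1 placebo animal. F1015 had 52.7 CPM of *S100A8*, 77.7 of *S100A9*, 75.5 of *MPO* and 24.0 of *MMP9*, and the next placebo value of *S100A8* was 8.14. Without F1015 the week 23 differences were -1.48 for *S100A8*, -1.48 for *S100A9*, -1.82 for *MPO* and -0.98 for *MMP9* (adjusted p 0.326 to 0.329). F1015 also gave the highest *S100A8* of its group at weeks -3, 0, 3, 7, 11 and 15.

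Whether the effect in follow-up differed from that under the high dose was tested directly. The effect at weeks 19 and 23 minus the effect at weeks 7, 11 and 15 was called below 0 for 6 of 8 members, where 19.8% of 16232 genes were called below 0 and 36.6% in either direction. *CSF3R* changed most (-3.08 ± 0.40, adjusted p = 4.76e-11). *S100A9* (-2.52 ± 0.47, adjusted p = 3.89e-06) and *S100A8* (-2.32 ± 0.46, adjusted p = 1.71e-05) followed, although neither had been called during treatment. *FPR1* (-1.25 ± 0.23), *CXCR2* (-1.05 ± 0.31) and *MPO* (-1.44 ± 0.50, adjusted p = 0.0169) were called too. *MMP9* (-0.11 ± 0.39, adjusted p = 0.871) and *LCN2* (0.02 ± 0.41, adjusted p = 0.979) were not. Without F1015 the same 6 members were called, with *S100A8* at -2.01 and *MPO* at -1.23 (adjusted p = 0.0384), and by limma-voom *MPO* was lost (-0.92, adjusted p = 0.196). This fit did not pair the biopsies of an animal. With the animal as a replicate block the same 6 members were called, with smaller estimates such as -1.86 for *S100A8*, -2.14 for *S100A9* and -1.13 for *MPO*. Some wIFN-α animals biopsied at the high dose had no biopsy at weeks 19 and 23. Of these, M1007 and F1020, which died, averaged 1.01 and 0.90 above their group means of *S100A9* on the log2 scale. M1002 averaged 0.55 below. The part of this drop-out in the unpaired fit was not tested.

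Individual wIFN-α animals moved alike after dosing ended. From week 15 to week 19, *S100A9*, *CSF3R*, *CXCR2* and *FPR1* were lower in 6 of 6 wIFN-α animals and *S100A8* in 5 of 6. The median log2 step was -3.25 for *CSF3R* and -2.15 for *S100A9*. *MMP9* had changed little by week 19 (lower in 3 of 6) and was higher in 6 of 6 animals at week 23 than at week 15, with a median step of 0.89. Some of these steps were shared by placebo animals, in which *MMP9* was higher in 7 of 8 at week 23 than at week 15 (median step 1.06) and *FPR1* lower in 5 of 5 at week 19 (-0.33). *CSF3R* was lower in 2 of 5 placebo animals at week 19 (0.15).

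The placebo animals were not flat either. Over the 8 weeks, 6 of 8 members changed with time in placebo animals, against 68.3% of all genes, and 7 of 8 in wIFN-α animals, against 76.7%. These shares are near the background. In placebo, *S100A8* (adjusted p = 1.92e-06), *S100A9*, *CSF3R*, *CXCR2*, *MMP9* and *MPO* (adjusted p = 1.19e-10) were called, and *FPR1* (adjusted p = 0.358) and *LCN2* (adjusted p = 0.378) were not. In wIFN-α animals *MPO* was not called (adjusted p = 0.383) but was in the paired fit with the animal as replicate block (0.0266 as its adjusted p), and *LCN2* (adjusted p = 0.00578) was not called with the block (adjusted p = 0.116) or without M1007 (adjusted p = 0.116).

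The placebo pattern had a first rise at week 0. From week -3 to week 0, *S100A9* and *MMP9* were higher in 12 of 12 placebo animals, and *S100A8*, *CSF3R* and *CXCR2* in 11 of 12. The placebo change was 1.43 ± 0.39 for *S100A8* and 1.08 ± 0.32 for *CSF3R*, with a median of -0.05 over all genes. In wIFN-α animals *S100A8* changed by 1.37 ± 0.40, much as in placebo, and *CSF3R* by 2.90 ± 0.35. *MMP9* changed by 1.05 ± 0.33 in placebo and by 0.03 ± 0.34 in wIFN-α animals.

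By week 15 the placebo levels of *S100A8* (0.30 ± 0.41 from week -3) and *CSF3R* (-0.27 ± 0.35) were near their start. A second placebo rise came at week 23, of 2.25 ± 0.41 for *S100A8*, 2.15 ± 0.42 for *S100A9* and 2.65 ± 0.46 for *MPO*. These fitted changes include F1015, and the median steps of the 9 placebo animals were smaller (1.39 to 1.41). All 9 placebo animals with both biopsies had more of each of these 3 genes at week 23 than at week -3. In wIFN-α animals the same interval gave -0.51 ± 0.49, -0.58 ± 0.49 and 0.23 ± 0.52. Of these animals 3 of 6 were higher and 3 lower for each gene. The week 23 difference between the arms therefore went with a placebo level above its own start and a wIFN-α level near its start. Other features moved with the weeks: the hepatocyte sum had a placebo median of 149628 CPM at week -3, 101918 at week 0 and 103535 at week 23, and the part of biopsy composition in these steps was not tested.

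The members were correlated to unequal degrees across biopsies. As a description over biopsies that share animals and weeks, Pearson's r of log2(CPM + 1) between *S100A8* and *S100A9* was 0.97 in 81 placebo biopsies and 0.96 in 68 wIFN-α biopsies. *CSF3R* and *CXCR2* had 0.79 in each arm. *MMP9* and *CSF3R* had 0.71 in placebo and 0.08 in wIFN-α biopsies, and *MMP9* and *FPR1* 0.39 and -0.11. These values pool the weeks before, during and after dosing. Within weeks 0 to 15, *MMP9* and *CSF3R* had 0.69 in 55 placebo biopsies and 0.55 in 45 wIFN-α biopsies. *MMP9* and *FPR1* had 0.33 and 0.15 there. The median over the 28 pairs was 0.49 in placebo and 0.43 in wIFN-α biopsies. *LCN2* had the lowest values in placebo (0.05 to 0.26), and *MPO* reached at most 0.52 there.

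**Figure D3:**
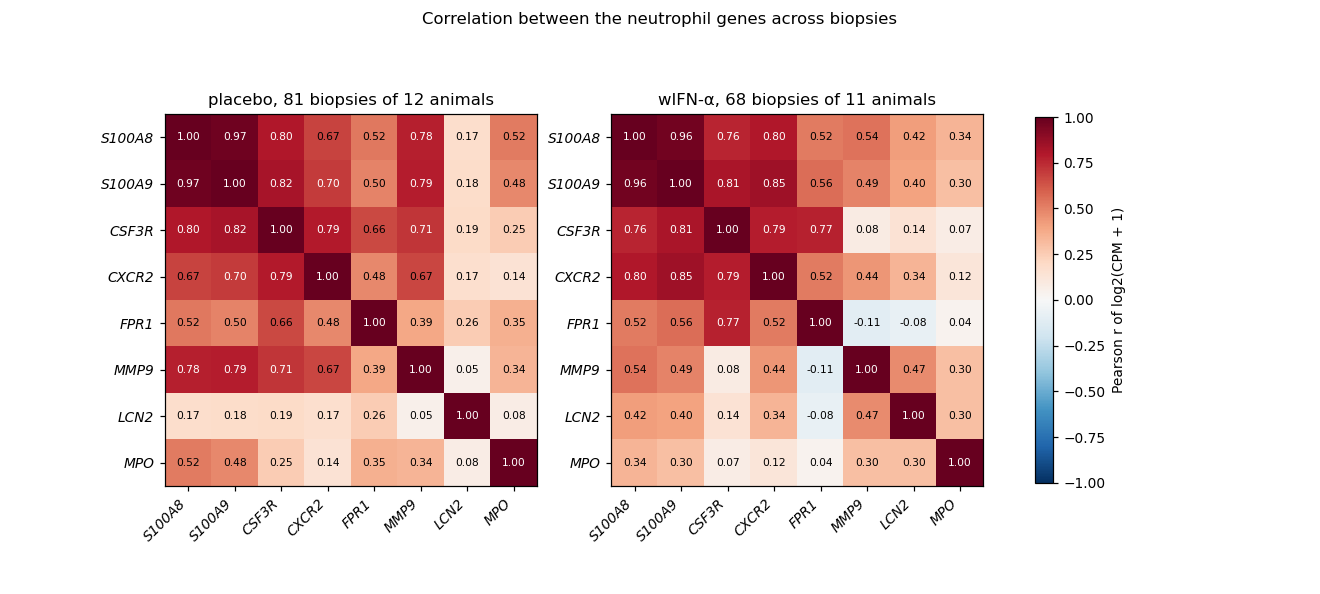
Pearson's r of log2(CPM + 1) between each pair of genes over 81 placebo biopsies (left) and 68 wIFN-α biopsies (right), with the value in each cell. *S100A8*, *S100A9*, *CSF3R* and *CXCR2* have r of 0.67 or more with each other in both arms, while *MMP9* with *CSF3R* has 0.71 and 0.08 over all weeks pooled.

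Outside the set, the genes most like the mean of the 8 standardized members over all 149 biopsies were *S100A12* (r = 0.87), *IL1B* (0.78), *GPR97* (0.78), *IRG1* (0.77) and *SLC2A14* (0.77), out of 13907 genes whose mean reached 1 CPM. *S100A12* is a further neutrophil S100 protein, *IL1B* a pyrogenic cytokine, and *GPR97* an adhesion receptor of granulocytes. Taken singly, *S100A8* and *S100A9* were closest to each other and then to *S100A12* (0.92 for each). *MPO* was closest to the azurophil granule defensins *DEFA4* (0.91), *DEFA1B* (0.90) and *DEFA3* (0.90), and the defensin copies may share reads. Over both arms pooled, *CSF3R* was closest to *PTPN1* and *HK3* (0.85 for each) and *FPR1* to *HLA-G* (0.79). In the 81 placebo biopsies alone *CSF3R* was closest to *IRG1* (0.85), *S100A12* (0.83) and *S100A9* (0.82), and *FPR1* to *AMICA1* (0.74). *LCN2* reached no more than 0.48 (*ZNF491*). The single closest genes were looked up after the values were seen.

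Other genes of neutrophil granules and membranes were compared in the same way. Of 16 such genes in the files, 12 to 14 could be tested in a week, and 1, 1, 1, 2 and 4 were called higher at weeks 0, 3, 7, 11 and 15. Over all genes 10.3%, 7.24%, 11.4%, 12.6% and 13.4% were called higher, so the counts up to week 11 are near the background. *PGLYRP1*, a peptidoglycan-binding granule protein, was the only one called in at least 3 treatment weeks (1.23, 1.23, 1.48, 1.30 and 1.20). At week 15 *LTF* (0.82) and *CXCR1* (1.18) were called higher too. The fourth call, *OLFM4* (mean 0.53 CPM), passed the filter on low counts in that week alone and is not read as a result. 1 gene of the list, *CAMP*, was called lower (-1.37 at week 3). The list's median difference was 0.46 at week 15 and -1.22 at week 23, where 0 of 13 were called. In follow-up minus high dose, 12 of 16 were called below 0, where 19.8% of all genes were. The list median was -1.72 and the median over all genes 0.02. Among those called were *S100A12* (-2.32), *MMP8* (-2.31) and *CTSG* (-1.76). This fit tested all 16 genes, also those too low to be tested in some single weeks. Such genes can pass its filter through 1 group where they are high, so the count is not read as a result about the list. *ELANE* (-1.85, mean 0.83 CPM), not tested at weeks 0, 7 and 19, is 1 of them.

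The NADPH oxidase, which makes the oxidative burst, was called higher only late in treatment. Of its 6 genes 0 were called at weeks 0, 3 and 7, 2 at week 11 and 3 at week 15. Over all genes 12.6% and 13.4% were called higher at weeks 11 and 15. *RAC2* rose by 1.23 and 1.37 in these 2 weeks, and *NCF1* by 0.69 at week 15. *CYBB*, the catalytic subunit, was not called (0.54 at week 15). In follow-up minus high dose, 3 of 6 were called below 0, against 19.8% of all genes.

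Adhesion and chemotaxis receptors moved in both directions. Of 12 genes 1, 0, 1, 2 and 4 were called higher at weeks 0, 3, 7, 11 and 15, and 1, 1, 2, 0 and 0 lower. The list median was 0.54 at week 15. Over all genes 13.4% were called higher at week 15 and 10.1% lower at week 7, and the earlier counts are near such shares. *TLR4*, the endotoxin receptor, was called higher in 4 of 5 treatment weeks (0.90 at week 15). *ITGAM*, the integrin chain CD11b, was called lower at weeks 0, 3 and 7 (-1.05, -0.77 and -0.94). *ITGB2* (0.80) and *C3AR1* (1.05) were among those higher at week 15. In follow-up minus high dose, 5 of 12 were called below 0, against 19.8% of all genes.

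Of the neutrophil attractants and growth factors, 9 of the 13 genes in the files could be tested. *ICAM1*, the endothelial ligand of leukocyte integrins, was called higher in all 5 treatment weeks (1.18, 0.90, 0.98, 1.68 and 1.93), as was the cytokine *TNF* (1.71 to 3.14). *CXCL2*, a CXCR2 ligand, was called higher at weeks 0, 7 and 15 (0.70, 0.82 and 1.01). *CXCL5*, a further CXCR2 ligand, was called lower in all 5 weeks (-2.65, -2.03, -1.40, -1.05 and -1.82). *IL8* was not called (0.15 at week 15). *CSF3*, the ligand of *CSF3R*, was too low to be tested by week (mean 0.22 CPM). In follow-up minus high dose, 8 of 12 were called below 0, against 19.8% of all genes. These 12 include genes too low to be tested by week, which can pass the filter through 1 group where they are high. The count is therefore not read as a result about the list. *CXCL2* (-2.15) and *CXCL1* (-1.94) were among the genes called below 0, and *CXCL5* was called above 0 (1.70).

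**Figure D4:**
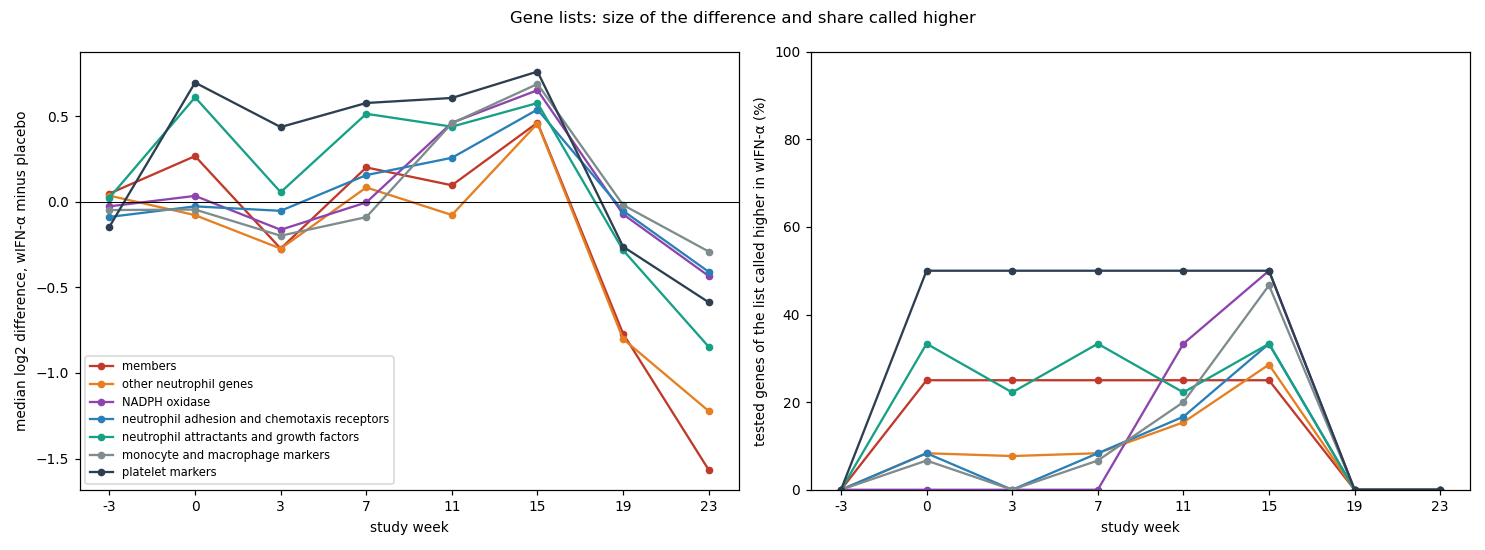
Median log2 difference between wIFN-α and placebo over the tested genes of each list (left) and share of them called higher (right) at each study week. The members and the other neutrophil genes have the lowest medians at week 23 (-1.57 and -1.22), where no gene was called, and the NADPH oxidase reaches 3 of 6 genes called at week 15.

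Markers of other cells moved with some of these results, and their part was not tested. Of 15 monocyte and macrophage genes, 1 was called higher at week 0, 0 at week 3, 1 at week 7, 3 at week 11 and 7 at week 15. 2 were called lower at week 7 and 1 at weeks 11 and 15. Over all genes 10.3%, 7.24%, 11.4%, 12.6% and 13.4% were called higher at weeks 0, 3, 7, 11 and 15. Shares called lower were 10.1%, 7.98% and 8.83% at weeks 7, 11 and 15. *FCGR1A* was higher at week 15 (1.76) and *CD163* lower (-1.94), and the summed level of the 15 genes had medians of 720 CPM in placebo and 959 in wIFN-α animals. At week 0, when *CSF3R* and *FPR1* were already called, these medians were 688 and 794, and only *CD68* (0.79) was called. Of 4 platelet genes tested, *PF4* (0.76 to 1.20) and *PPBP* (1.59 to 2.53), both also chemokines, were called higher in all 5 treatment weeks. *ITGA2B* and *TUBB1* were not called, with differences of 0.46 and 0.24 at week 0 and of 0.09 and -0.05 at week 7. At week 15 the summed level of the platelet list ran from 9.8 to 19.6 CPM in placebo and from 37.4 to 65.1 in wIFN-α animals. This sum is weighted towards *PPBP*, with a mean of 15.8 CPM against 1.45 for *ITGA2B* and 1.88 for *TUBB1*. Whether platelet content changed was not tested.

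Blood content was read from 7 erythrocyte genes, 6 of which could be tested. At weeks 0 and 3 none was called, and at week 15 none was called higher. At week 11 *HBA1* (1.61) and *HBA2* (1.60) were called higher. The summed erythrocyte level at week 15 ran from 61.0 through a median of 137 to 448 CPM in placebo and from 81.3 through 121 to 530 in wIFN-α animals. At week 23 its medians were 262 CPM in placebo and 90.9 in wIFN-α animals, beside the lower member levels of that week.

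Of the eosinophil, basophil and mast cell genes, 4 to 6 could be tested, and *KIT* (weeks 0, 3 and 7, -1.43 to -1.03) and *MS4A2* (weeks 0, 7, 11 and 15, -0.93 to -0.70) were called lower, and *TPSAB1* higher at week 11 (1.80). Over all genes 8.15%, 3.54%, 10.1%, 7.98% and 8.83% were called lower at weeks 0, 3, 7, 11 and 15, and 12.6% higher at week 11. *TPSAB1* had a mean of 0.51 CPM. *EPX* and *PRG2*, defining genes of eosinophils, had means of 0.19 and 0.05 CPM. Among 11 acute phase genes, 2, 2, 6, 2 and 6 were called higher at weeks 0, 3, 7, 11 and 15. The shares over all genes were 10.3%, 7.24%, 11.4%, 12.6% and 13.4%. *CRP* (0.59 to 0.95, all but week 11) and *LBP* (1.60 at week 15) were among the acute phase genes called, while *SAA1* was called only at week 7 (0.88). At weeks 3 and 7, when *LCN2* was called lower, *SAA1* differed by -0.35 and 0.88. Of 12 hepatocyte genes at most 1 was called in each direction in any week. At week 7, with 1 called in each direction, the shares over all genes were 11.4% higher and 10.1% lower, near that count. Of the 20 skeletal muscle genes 0 were called in any week by edgeR, with medians of -1.89 at week 3 and 1.28 at week 0.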

How the data were processed

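Paired-end libraries were made from poly(A) RNA of liver biopsies. The authors mapped the reads with Bowtie2 to their woodchuck transcriptome assembly and counted them with SAMtools. The deposited expected counts per gene were not normalized by the authors, and 118 of 3368022 entries above 0 were fractions. They were rounded to whole numbers after summing. The deposited RPKM values of the authors served only to check the unit and to derive transcript lengths. The 203 runs were summed to 164 biopsies, 38 of which had more than 1 run. Of these, 149 were compared, 7 belonged to M1004 and 8 came from other weeks or from animals that died. No column was without a sample (0), and the virus entry stayed out of library sizes and tests. For M1008 (placebo, week 15) the 2 summed runs differed more than those of any other biopsy, and the deepest run alone was an alternative.

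Members were compared with edgeR 4.0.16 (R 4.3.3; TMM, filterByExpr, quasi-likelihood test), each week in its own fit, and time courses and differences between effects in 1 fit of 16 groups. DESeq2 1.42.0 and limma-voom 3.58.1 were alternatives, beside RLE normalization, no filter, the deepest run, M1004, sex or lane number as a covariate, a fold change of 2, the animal as a replicate block, omission of biopsies with muscle, and omission of single animals. Single omissions covered the wIFN-α animals of weeks 0 to 23 and the placebo animals of weeks 15, 19 and 23. F1015 was also left out of every other comparison, a choice made after seeing the data. Biopsies of 1 animal deviated together (median r of deviations from the group mean 0.31 over 450 pairs, against -0.02 between animals), so the animal numbers pair the biopsies. On data simulated for week 15, edgeR recovered 191 of 200 genes changed 4-fold, with 11 others called, of 14867 genes. For the difference between follow-up and high dose it recovered 176 of 200, with 14 others, of 16134 genes.

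The text names all members. From each list it names genes called in at least 3 of 5 treatment weeks, with others chosen after their values were seen. Some list genes are not reported here by name. Members and lists were chosen with earlier results of these data known. Correlations used log2(CPM + 1), and values within lane numbers log2(CPM + 0.01). Tables were made with Python, numpy and pandas. p-values of single weeks rest on the spread between animals. Those of time courses and differences between effects rest on the spread between biopsies that share animals, except in the fit with the animal as a replicate block.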

Additional observations from a re-analysis of the deposited data

Results flagged for a closer look

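Of 80 groups of 4 to 10 biopsies, 7 held a value far outside the spread of the others, and chance alone would give about 1 in 20. Of these, 6 belonged to placebo animal F1015: 6.75 CPM of *S100A8*, 11.5 of *S100A9* and 4.65 of *CSF3R* at week 15, and 52.7 of *S100A8*, 77.7 of *S100A9* and 24 of *MMP9* at week 23. The other animals of that group had at most 3.20, 4.28 and 2.05 CPM at week 15, and 8.14, 14.8 and 7.05 at week 23. The seventh was *MPO* in wIFN-α animal M1007 at week 7, with 3.71 CPM against 0.884 to 1.77 in the others.

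Differences between the effect in follow-up and that under the high dose passed edgeR's test for *CSF3R* (-3.08), *S100A9* (-2.52), *S100A8* (-2.32), *MPO* (-1.44), *FPR1* (-1.25) and *CXCR2* (-1.05), on the log2 scale.

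Biopsies outside the comparisons exceeded every one of the 81 placebo biopsies in 4 animals, all of the wIFN-α arm. Those of F1023, F1020 and M1006 are single biopsies with no control at a matched time, and no test was made. The paper tentatively names severe pneumonia for the death of F1023. It lists M1006 as euthanized in deteriorating health and F1020 as dead of unknown cause. The part of illness in these values, as against that of wIFN-α, was not tested. The biopsy of F1023 labelled as taken when the animal died had 155 CPM of *S100A8*, 203 of *S100A9*, 46.1 of *CSF3R*, 8.21 of *CXCR2*, 59.8 of *FPR1* and 5350 of *LCN2*. The highest placebo values were 52.7, 77.7, 14.2, 2.82, 8.96 and 46.4 CPM. F1020, labelled likewise, had 40.7 CPM of *CSF3R* and 18.5 of *FPR1*. M1006 at label week 3 had 24 CPM of *CSF3R*, 14.2 of *FPR1* and 372 of *LCN2*. M1004, left out although week 15 has 9 placebo biopsies, had 9.64 CPM of *FPR1* at that week.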

How the results depend on the processing

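Of 245 recounts of called members over 12 comparisons, 238 stayed within 1.5 times the reported count. Week 3 (4 called) went to 1 without biopsies with muscle and to 2 to 4 when single animals were left out. Week 19 (0) went to 1 with DESeq2. Week 23 (0) went to 1 with DESeq2 and to 6 in 1 fit of all weeks. The difference between high and low dose (0) went to 1 with the animal as a replicate block. The block changed no other count by over 1.5 times, but it changed the time course calls of *LCN2* and *MPO* given above. Leaving out single animals gave 3 to 3, 3 to 4, 3 to 4 and 3 to 4 at weeks 0, 7, 11 and 15, 0 to 0 at weeks 19 and 23, 6 to 6 (placebo) and 6 to 7 (wIFN-α) for the time courses, 6 to 6 for follow-up minus high dose and 0 to 0 for high minus low dose. The causes were not tested.

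For single members, 1876 of 1960 values kept direction and call, and all 43 changes of direction concerned differences that were not called. With limma-voom these were *MMP9* (0.12) for follow-up minus high dose, *LCN2* (-0.21) for high minus low dose, *S100A9* (-0.033) and *LCN2* (-0.027) at week -3, *CXCR2* at week 3 (0.060) and *S100A8* at week 7 (-0.072). Without biopsies with muscle they were *LCN2* for follow-up minus high dose (-0.029), *FPR1* at weeks -3 (-0.14) and 19 (-0.067), *S100A8* at week 11 (0.034) and *CXCR2* at week 3 (0.10). The others were *LCN2* for high minus low dose with lane as a covariate (-0.13), *MPO* there with the animal as a replicate block (0.017), *FPR1* at week -3 with sex (-0.0041) and at week 19 with M1004 (-0.026). Leaving out single animals gave -0.26 to 0.044 for *MMP9* and -0.076 to 0.13 for *LCN2* (follow-up minus high dose), -0.15 to 0.15 for *LCN2* (high minus low dose), 0.028 for *CSF3R* at week -3 (F1015 only), -0.12 to 0.31 for *S100A8* and -0.012 to 0.41 for *S100A9* at week 0, -0.39 to 0.019 for *S100A9* and -0.14 to 0.077 for *CXCR2* at week 3, -0.12 to 0.19 for *S100A8* at week 7, -0.26 to 0.19 for *S100A8* at week 11 and -0.073 to 0.16 for *FPR1* at week 19.

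*CXCR2* and *MPO* rested on medians of 28 and 55 reads per biopsy, and counting error limits their precision. With 5 placebo and 6 wIFN-α animals at week 19, a difference that misses the threshold does not show equal levels.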

Other observations

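The genes differed by unequal amounts in the biopsies of animals that died and of M1006, which was euthanized. In F1023 *LCN2* stood at 5355 CPM, against a placebo median of 9.34. *MPO* (14.8 CPM) and *MMP9* (14.4) were also above their placebo medians of 2.40 and 3.44. Both were below the highest placebo values of 75.5 and 24.0, which came from F1015 at week 23. In M1006 at label week 3, *LCN2* was 372 CPM beside 0.79 CPM of *MPO* and 2.89 of *MMP9*. F1020 had 40.5 CPM of *S100A8* and 59.5 of *S100A9*, and 27.0 of *LCN2*. The placebo medians of *S100A8* and *S100A9* were 2.93 and 4.38, and only the placebo range that includes F1015 at week 23 reached the values of F1020. The placebo animal that died, F1024, had 24.2 CPM of *S100A8* and 19.5 of *S100A9*, but 3.78 of *CSF3R* and 3.15 of *FPR1*. M1007, of the wIFN-α arm, had 10.5 CPM of *CSF3R* and 7.64 of *FPR1* when it died.

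M1004, kept out of the comparisons, had 8.60, 7.81, 9.73, 7.63 and 8.38 CPM of *CSF3R* at weeks 0, 3, 7, 11 and 15, against 2.73 at week -3 and 1.00 at week 19. Its *MMP9* went from 4.10 CPM at week -3 to 0.96 at week 15. Placebo animals M1010 and F1017 were euthanized, according to the paper for symptoms linked to terminal hepatocellular carcinoma. Their biopsies at label week 18 had 16.1 and 5.97 CPM of *MPO*, and the part of illness in these values was not tested. wIFN-α animal M1002 at label week 26 had 1.86 CPM of *S100A8* and 1.56 of *CSF3R*.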
